A study of Saccharomyces cerevisiae with 8 samples.

Results

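The genes described here are the hexose transporter genes HXT1, HXT2, HXT3, HXT4 and HXT5 of Saccharomyces cerevisiae together with genes of the pathway that controls them, which are the glucose sensor genes SNF3 and RGT2, the regulator genes STD1 and MTH1 and the repressor gene RGT1. They were taken by gene symbol from the annotation of the array. All 10 had a probe set of their own that belonged to no other gene, out of 5656 genes with such a probe set, and all 10 passed the filter on low signals that left 5343 genes. The series asked how deletion of STB3, the gene of a promoter-binding protein, changes expression when starved yeast receives glucose. Its 4 groups were stb3-null cells 10 min after addition of 2% glucose, stb3-null cells kept for 3 days in the rich medium YPD without that addition, BY4742 cells 10 min after 2% glucose and BY4742 cells at 3 days. BY4742, a haploid laboratory strain of mating type alpha, is called wild type here. Each group held 2 arrays, replicates A and B, of 1 total RNA each, and the labels name a single deletion strain without saying how many isolates were used or whether the replicates were separate cultures.

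Budding yeast takes up glucose through a family of hexose transporters that differ in affinity, and it makes the low-affinity ones when sugar is plentiful. Snf3 and Rgt2 are transporter-like proteins of the plasma membrane that bind glucose and signal instead of carrying it. Without glucose, Mth1 and Std1 keep the DNA-binding repressor Rgt1 on the HXT promoters. With glucose, both proteins are phosphorylated by the casein kinases Yck1 and Yck2, marked by the ubiquitin ligase SCF-Grr1 and degraded, after which Rgt1 leaves the DNA. Glucose also represses transcription of MTH1 and SNF3 through Mig1 and Mig2, and it induces transcription of STD1, a known feedback of the pathway.

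Values are log2 signals, so that equal steps are equal folds, and levels of different genes were not set against each other because each probe set has its own brightness. The signals of the 10 genes lay between 5.86 and 13.27. The filter removed genes whose mean antilog signal lay below 10% of the average trimmed mean of the arrays, a log2 level of 5.80, and sizes of change are uncertain for signals close to it. Replicates A and B differed with a standard deviation, over all genes tested, of 0.28 and 0.26 in stb3-null after glucose and at 3 days, against 0.55 and 0.58 in wild type after glucose and at 3 days. Over the 10 genes it was 0.35 and 0.43 in stb3-null and 0.76 and 0.70 in wild type. The widest gaps between replicates were 1.59 for HXT3 in wild type at 3 days and 1.36 for HXT4 in wild type after glucose. As a check of the labels, STB3 lay between 2.50 and 3.30 on the stb3-null arrays, against 7.62 to 9.23 on the wild-type arrays. The alpha-factor gene MF(ALPHA)1 reached at least 11.09 on every array. The other genes checked for alpha cells, MF(ALPHA)2 and STE3, lay at 6.88 to 8.45 and 8.12 to 8.92. Of genes used in a cells, STE2, AGA2 and BAR1 did not exceed 6.01, whereas the a-factor genes MFA1 and MFA2 lay between 6.55 and 7.81 in both strains. Because probe sets differ in brightness, these levels do not settle the mating type. Of the auxotrophy genes that BY4742 lacks in working form, URA3 and LYS2 did not exceed 4.62, LEU2 lay between 5.13 and 6.18, and HIS3 lay between 7.96 and 11.17, with every glucose array above every 3-day array. Where the probes of these genes lie relative to the deleted parts is not given here, so HIS3 and LEU2 check nothing about the strain.

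**Figure D1:**
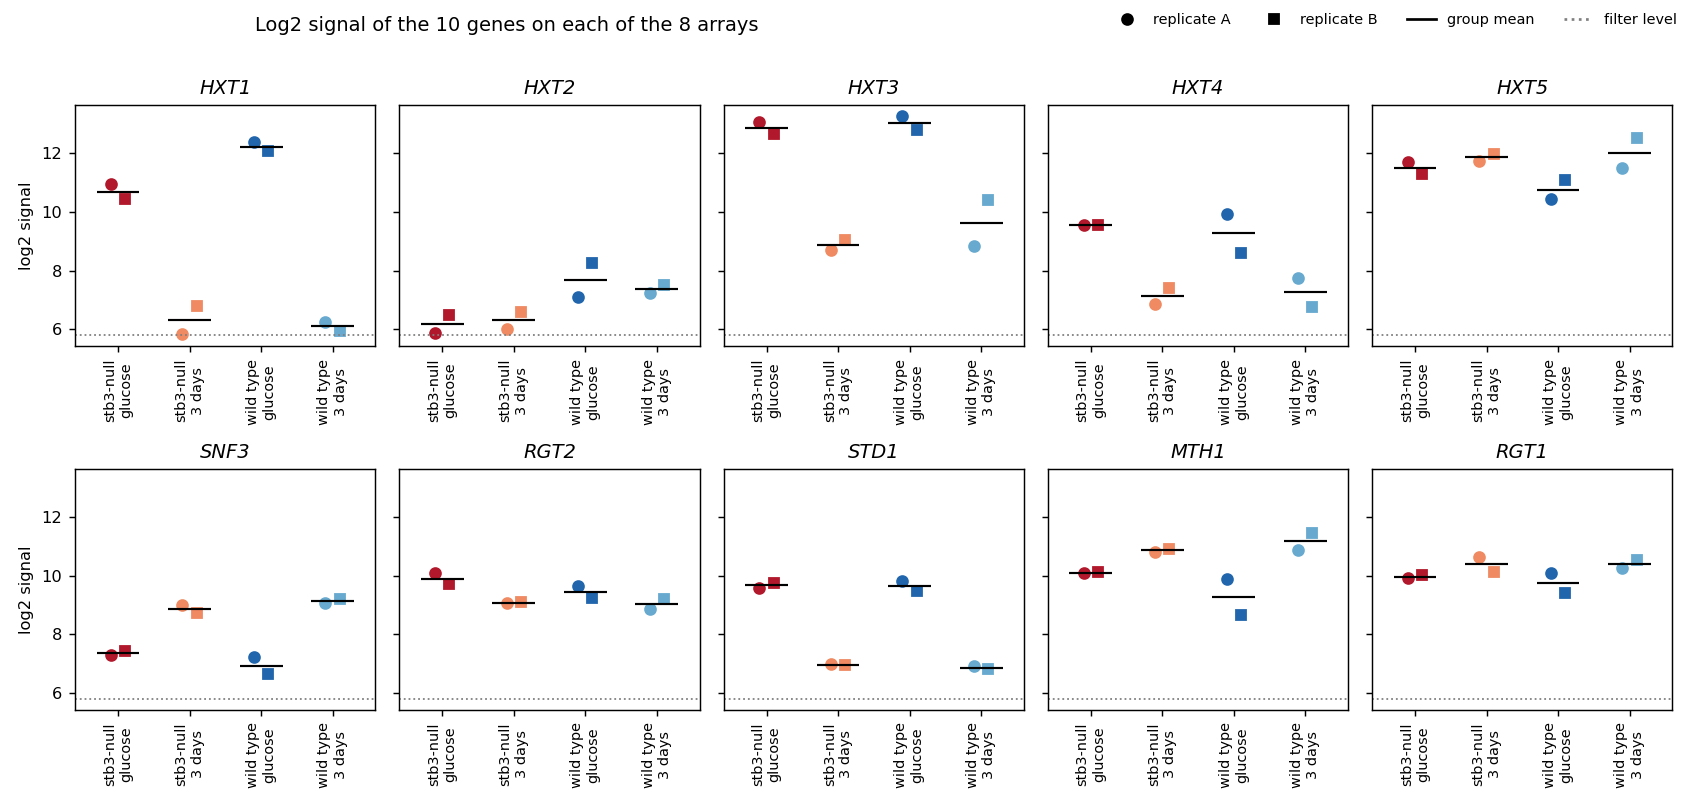
Log2 signal (vertical axis) of each of the 10 genes on the 8 arrays, by group, with circles for replicate A, squares for replicate B, a black line for the group mean and a dotted line for the filter level of 5.80. HXT1, HXT3, HXT4 and STD1 are higher after glucose in both strains. HXT2 is lower on all stb3-null arrays than on any wild-type array, a separation that was not counted over all genes.

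Within 10 min of glucose, the transporter genes HXT1, HXT3 and HXT4 and the regulator gene STD1 rose in both strains, while the sensor gene SNF3 fell in both. In stb3-null cells, 6 of the 10 genes passed limma's test at an adjusted p below 0.05, with 5 higher and 1 lower. Among all genes tested in that strain, 39.5% passed, 28.0% higher and 11.6% lower. In wild type, 7 of the 10 passed, with 4 higher and 3 lower, against 49.9% of all genes, 32.3% higher and 17.6% lower. The test used 1 estimate of the spread for both strains although wild-type replicates spread more widely. Calls are therefore not directly comparable between the strains. The arrays before and after glucose did not overlap for 9 of the 10 genes in each strain, and this was so for 80.6% of all genes in stb3-null and 70.9% in wild type. The median change of the 10 genes was 0.33 in stb3-null, beside 0.26 for all genes, and 0.37 in wild type, beside 0.22 for all genes, and no test was made of the 10 genes as a group. RNA came from whole cultures, so that fewer cells carrying an RNA and less of it per cell cannot be told apart.

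**Figure D2:**
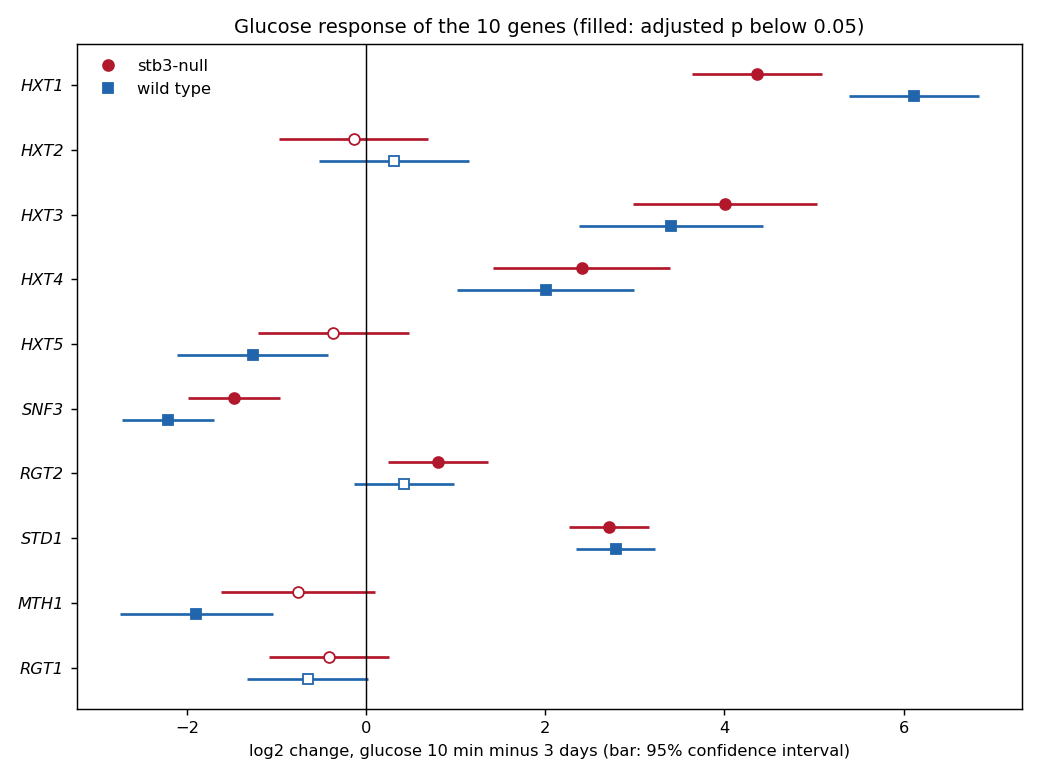
Log2 change after glucose (horizontal axis, glucose 10 min minus 3 days) of each gene in stb3-null (circles) and wild type (squares), with 95% confidence intervals as bars. Filled points passed at an adjusted p below 0.05, and HXT1 lies farthest to the right at 4.36 in stb3-null and 6.12 in wild type.

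HXT1 (YHR094C) encodes a low-affinity transporter made at high glucose. In stb3-null it read 10.95 and 10.44 after glucose, against 5.86 and 6.81 at 3 days. Its wild-type signals were 12.38 and 12.08 after glucose, against 6.26 and 5.96 at 3 days. The arrays before and after glucose lay far apart in both strains, and all 4 signals at 3 days, from 5.86 to 6.81, were near the filter level, so the size of the rise is uncertain. The rise was 4.36 in stb3-null (SE 0.32, adjusted p = 1.01e-04), a 20.5-fold change with a 95% confidence interval of 12.4 to 34.0. In wild type it was 6.12 (SE 0.32, adjusted p = 1.22e-05), 69.6-fold with an interval of 42.0 to 115. With an offset of 20% of the average trimmed mean added before the logarithm, which damps changes of low signals, the rise was 3.18 in stb3-null and 4.77 in wild type. By size of rise HXT1 ranked 2 among the 5343 genes in stb3-null and 1 in wild type.

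HXT3 (YDR345C), the gene of another low-affinity transporter, read 13.08 and 12.67 in stb3-null after glucose, against 8.70 and 9.04 at 3 days. In wild type it read 13.27 and 12.79 after glucose, against 8.83 and 10.42 at 3 days. After glucose the 4 arrays of both strains lay within 0.60 of each other, whereas at 3 days wild type replicate B stood above the other 3 arrays. HXT3 rose by 4.01 in stb3-null (SE 0.46, adjusted p = 3.00e-04), the rank 5 rise in that strain, and by 3.41 in wild type (SE 0.46, adjusted p = 2.88e-04), rank 42. The rise in wild type was 2.61 without replicate A at 3 days and 4.20 without replicate B.

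HXT4 (YHR092C) encodes a transporter of higher affinity. It read 9.55 on both stb3-null arrays after glucose, against 6.87 and 7.42 at 3 days. Wild-type cells had signals of 9.95 and 8.59 after glucose, against 7.76 and 6.77 at 3 days. The groups before and after glucose did not overlap in either strain, and replicate A was the higher wild-type array in both conditions. The rise was 2.41 in stb3-null (SE 0.44, adjusted p = 0.00284) and 2.01 in wild type (SE 0.44, adjusted p = 0.00453), and the wild-type rise was 1.33 without replicate A after glucose (adjusted p = 0.0203).

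HXT5 (YHR096C) encodes a transporter known from slow growth and stationary phase. It read 11.70 and 11.29 in stb3-null after glucose, against 11.75 and 11.98 at 3 days. Wild-type arrays read 10.43 and 11.08 after glucose, against 11.51 and 12.53 at 3 days. Every glucose array lay below both 3-day arrays of its strain, by a margin of only 0.05 at the narrowest in stb3-null. HXT5 fell by 1.27 in wild type (SE 0.38, adjusted p = 0.0191), and in stb3-null the change was -0.37 (SE 0.38, adjusted p = 0.457, 95% confidence interval -1.21 to 0.47). The call in wild type was lost when replicate B at 3 days was left out (-0.76, adjusted p = 0.112), when replicate A after glucose was left out (-0.94, adjusted p = 0.0971) and with only the wild-type arrays in the fit (adjusted p = 0.0618). With quantile normalisation the changes were -1.09 in stb3-null (adjusted p = 0.0324) and -1.95 in wild type (adjusted p = 0.00149).

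HXT2 (YMR011W), for a high-affinity transporter induced by low glucose and repressed by high glucose, did not pass in either strain. It read 5.88 and 6.48 in stb3-null after glucose, against 6.03 and 6.61 at 3 days. Its wild-type signals were 7.11 and 8.25 after glucose, against 7.24 and 7.50 at 3 days. The groups before and after glucose overlapped in both strains. The change was -0.14 in stb3-null (adjusted p = 0.785, interval -0.97 to 0.69) and 0.31 in wild type (adjusted p = 0.515, interval -0.52 to 1.14), and the wild-type change was -0.17 when the arrays were scaled to a common trimmed mean.

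Of the sensor genes, SNF3 fell after glucose in both strains. RGT2 was called higher after glucose in stb3-null only, a call that several other settings did not keep. SNF3 (YDL194W), for the sensor of low glucose, read 7.31 and 7.44 in stb3-null after glucose, against 8.99 and 8.72 at 3 days. In wild type it read 7.22 and 6.65 after glucose, against 9.08 and 9.22 at 3 days. All glucose arrays lay more than 1 below all 3-day arrays. SNF3 fell by 1.48 in stb3-null (SE 0.23, adjusted p = 0.00127), rank 135 from the bottom of the 5343 genes, and fell by 2.22 in wild type (SE 0.23, adjusted p = 7.27e-05), rank 85 from the bottom.

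RGT2 (YDL138W), for the sensor of high glucose, read 10.08 and 9.70 in stb3-null after glucose, against 9.07 and 9.10 at 3 days. Wild-type cells had signals of 9.65 and 9.24 after glucose, against 8.85 and 9.20 at 3 days. The groups did not overlap, but in wild type the nearest arrays were 0.04 apart. RGT2 was higher by 0.81 in stb3-null (SE 0.25, adjusted p = 0.029), and in wild type the difference was 0.42 (SE 0.25, adjusted p = 0.185, interval -0.14 to 0.98). The call in stb3-null did not hold when any 1 of the 4 stb3-null arrays was left out, at 0.79 without 3 days replicate A, 0.82 without B, 0.62 without glucose replicate A and 1.0 without B (adjusted p of 0.0626 to 0.202). Nor did it hold with quantile normalisation (0.53, adjusted p = 0.128), median centring (0.70, adjusted p = 0.055) or a common trimmed mean (0.31, adjusted p = 0.305). The wild-type value was -0.06 with a common trimmed mean. It was 0.80 without both wild-type B arrays, which left a single array in each wild-type group.

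The paralogous regulator genes STD1 and MTH1 moved in opposite directions in wild type. Their changes also had opposite signs in stb3-null, where that of MTH1 did not pass. STD1 (YOR047C) read 9.59 and 9.75 in stb3-null after glucose, against 6.98 and 6.94 at 3 days. Wild-type arrays read 9.83 and 9.48 after glucose, against 6.91 and 6.83 at 3 days. The arrays of both strains fell into the same narrow ranges, a spread of 0.35 after glucose and 0.15 at 3 days. STD1 rose by 2.71 in stb3-null (SE 0.20, adjusted p = 1.01e-04), 6.54-fold, and by 2.79 in wild type (SE 0.20, adjusted p = 1.35e-05), 6.89-fold.

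MTH1 (YDR277C) read 10.10 and 10.11 in stb3-null after glucose, against 10.82 and 10.92 at 3 days. Its wild-type signals were 9.90 and 8.65 after glucose, against 10.88 and 11.46 at 3 days. All glucose arrays lay below all 3-day arrays, and wild type replicate B held both the lowest signal after glucose and the highest at 3 days. MTH1 fell by 1.90 in wild type (SE 0.38, adjusted p = 0.00289). It fell by 0.98 without both wild-type B arrays, which left a single array in each wild-type group. In stb3-null the change of -0.77 did not pass (SE 0.38, adjusted p = 0.139, interval -1.62 to 0.09), but it passed in 7 of 22 other settings, among them quantile normalisation (-1.19, adjusted p = 0.0315), a common trimmed mean (-1.26, adjusted p = 0.0275), only the stb3-null arrays in the fit (adjusted p = 0.00394), array weights (adjusted p = 0.0112) and omission of wild type glucose replicate A (adjusted p = 0.0356) or B (adjusted p = 0.0366), which left the change itself at -0.77.

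RGT1 (YKL038W), the gene of the repressor itself, did not pass in either strain. It read 9.92 and 10.02 in stb3-null after glucose, against 10.65 and 10.12 at 3 days. In wild type it read 10.09 and 9.40 after glucose, against 10.25 and 10.55 at 3 days. The glucose arrays lay below the 3-day arrays of their strain without overlap. The change was -0.42 in stb3-null (adjusted p = 0.294, interval -1.09 to 0.26) and -0.66 in wild type (adjusted p = 0.0954, interval -1.33 to 0.02). Changes of this size depended on how arrays were scaled, since the median of all genes was 0.26 in stb3-null and 0.22 in wild type as deposited, but 0.15 and 0.13 with median centring, 0.04 and 0.02 after quantile normalisation and -0.24 and -0.26 with a common trimmed mean. With quantile normalisation RGT1 passed in stb3-null at -0.77 (adjusted p = 0.0496) and in wild type at -1.08 (adjusted p = 0.00871), with a common trimmed mean at -0.91 and -1.14 (adjusted p = 0.0244 and 0.00675), and without wild type glucose replicate A it passed in wild type at -1.0 (adjusted p = 0.0254). HXT1, HXT3, HXT4, SNF3 and STD1 in both strains and MTH1 in wild type passed with the same sign in all 22 other settings tried.

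**Figure D3:**
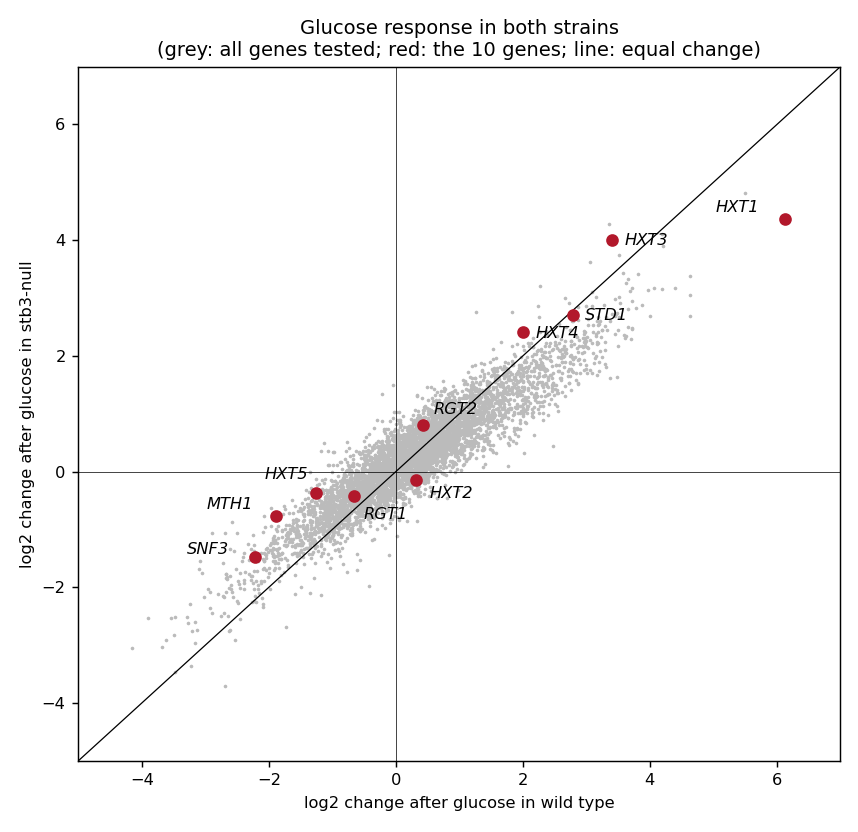
Log2 change after glucose in stb3-null (vertical axis) against wild type (horizontal axis) for the 5343 genes tested (grey) and the 10 genes described here (red), with a line where both changes are equal. HXT1 lies below the line at 4.36 in stb3-null against 6.12 in wild type, STD1 lies on it, and MTH1 and HXT5 lie above it.

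Whether STB3 deletion altered these responses was tested as the difference between the responses of both strains. No gene passed limma's test of that difference at an adjusted p below 0.05, neither among the 10 nor among all 5343 (0% of genes). At an unadjusted p below 0.05 there were 2 of the 10 genes, HXT1 and SNF3, and 6.92% of all genes. The response of HXT1 was smaller in stb3-null by a log2 difference of -1.76 (SE 0.46, 95% confidence interval -2.79 to -0.73, unadjusted p = 0.00354, adjusted p = 0.644), rank 4 from the bottom of all genes. It ran from -2.24 to -1.29 over 21 other settings, with adjusted p from 0.0642 to 0.998, so the difference failed the correction throughout. SNF3 differed by 0.74 (interval 0.01 to 1.46, adjusted p = 0.713), its fall being the smaller in stb3-null. For MTH1 the difference was 1.13 (interval -0.08 to 2.34, adjusted p = 0.726), and it was 1.76 without wild type glucose replicate A, 0.51 without replicate B and 0.22 without both wild-type B arrays. For HXT5 it was 0.90 (interval -0.30 to 2.09, adjusted p = 0.774), and 0.39 without wild type 3 days replicate B. For STD1 it was -0.08, with an interval of -0.70 to 0.55 that leaves room for a change of that size either way. HXT2, HXT3, HXT4, RGT2 and RGT1 lay between -0.45 and 0.60, with adjusted p of at least 0.838.

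The strains were then compared within each condition. After glucose, none of the 10 genes passed. The only gene of all those tested that did (0.0187%) was the deleted STB3 itself, at -5.36 (adjusted p = 2.17e-04 by limma). Not passing therefore does not show that a gene was equal in both strains. Of the 10 genes, 2 had an unadjusted p below 0.05, as did 9.66% of all genes. The arrays of the strains did not overlap for 6 of the 10, against 44.1% of all genes. HXT1 was 10.95 and 10.44 in stb3-null, against 12.38 and 12.08 in wild type, a difference of -1.54 (SE 0.32, interval -2.26 to -0.81, unadjusted p = 9.01e-04, adjusted p = 0.252). HXT2 was 5.88 and 6.48 in stb3-null, against 7.11 and 8.25 in wild type, a difference of -1.50 (SE 0.37, interval -2.33 to -0.67, unadjusted p = 0.00264, adjusted p = 0.297). These were ranks 10 and 11 from the bottom of all genes in the comparison. HXT5, SNF3, RGT2 and MTH1 were higher on both stb3-null arrays than on both wild-type arrays, by mean differences of 0.44 to 0.83 that did not pass (adjusted p of 0.528 to 0.599). For MTH1, with the largest of the 4 at 0.83, the difference was 1.46 without wild type glucose replicate A (adjusted p = 0.0677) and 0.21 without replicate B (adjusted p = 0.954). HXT3, HXT4, STD1 and RGT1 overlapped between strains. Omission of arrays changed some calls. HXT2 passed at -2.07 without wild type replicate A (adjusted p = 0.0297), and without both wild-type B arrays HXT1 passed at -1.69 (adjusted p = 0.00311), HXT2 at -0.93 (adjusted p = 0.0358) and HXT5 at 1.07 (adjusted p = 0.0347), with each single wild-type array assumed to vary like the stb3-null ones.

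At 3 days, before glucose, none of the 10 genes passed either (0.0374% of all genes did, the deleted STB3 among them). HXT2 alone had an unadjusted p below 0.05, which 8.72% of all genes had. It read 6.03 and 6.61 in stb3-null, against 7.24 and 7.50 in wild type, a difference of -1.05 (SE 0.37, interval -1.88 to -0.22, adjusted p = 0.455), rank 26 from the bottom. The stb3-null signals of HXT2, from 5.88 to 6.61 on the 4 arrays, lay near the filter level, which makes the size of this difference uncertain. With the offset of 20%, the strain difference of HXT2 was -0.53 at 3 days and -0.80 after glucose. A filter at 40% instead of 10% removed HXT2. HXT2, SNF3 and STD1 did not overlap between strains, 3 of 10 genes against 37.2% of all genes, with SNF3 at -0.30 and STD1 at 0.09. The other 7 genes overlapped, with differences between -0.76 for HXT3 and 0.23 for HXT1. HXT3 passed at -1.55 once replicate A of wild type was left out (adjusted p = 0.0496), and stood at 0.04 once replicate B was. The difference of HXT2 was -0.92 without both wild-type B arrays, which left a single array in each wild-type group.

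After the values had been seen, the strain difference was also averaged over both conditions for all genes. The average difference of HXT2 was -1.28 (SE 0.26, 95% confidence interval -1.87 to -0.68, unadjusted p = 7.72e-04), with all 4 stb3-null arrays below all 4 wild-type arrays. How many of all genes were separated in this way was not counted, so the separation adds no support. The average difference of HXT2 ranked 10 from the bottom of the 5343 genes and did not pass by limma (adjusted p = 0.156). None of the 10 genes passed this contrast. Of all genes 0.0561% did, each of them lower in stb3-null and the deleted STB3 among them. HXT1 and HXT2 were the 2 genes of 10 with an unadjusted p below 0.05, which 10.7% of all genes had.

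**Figure D4:**
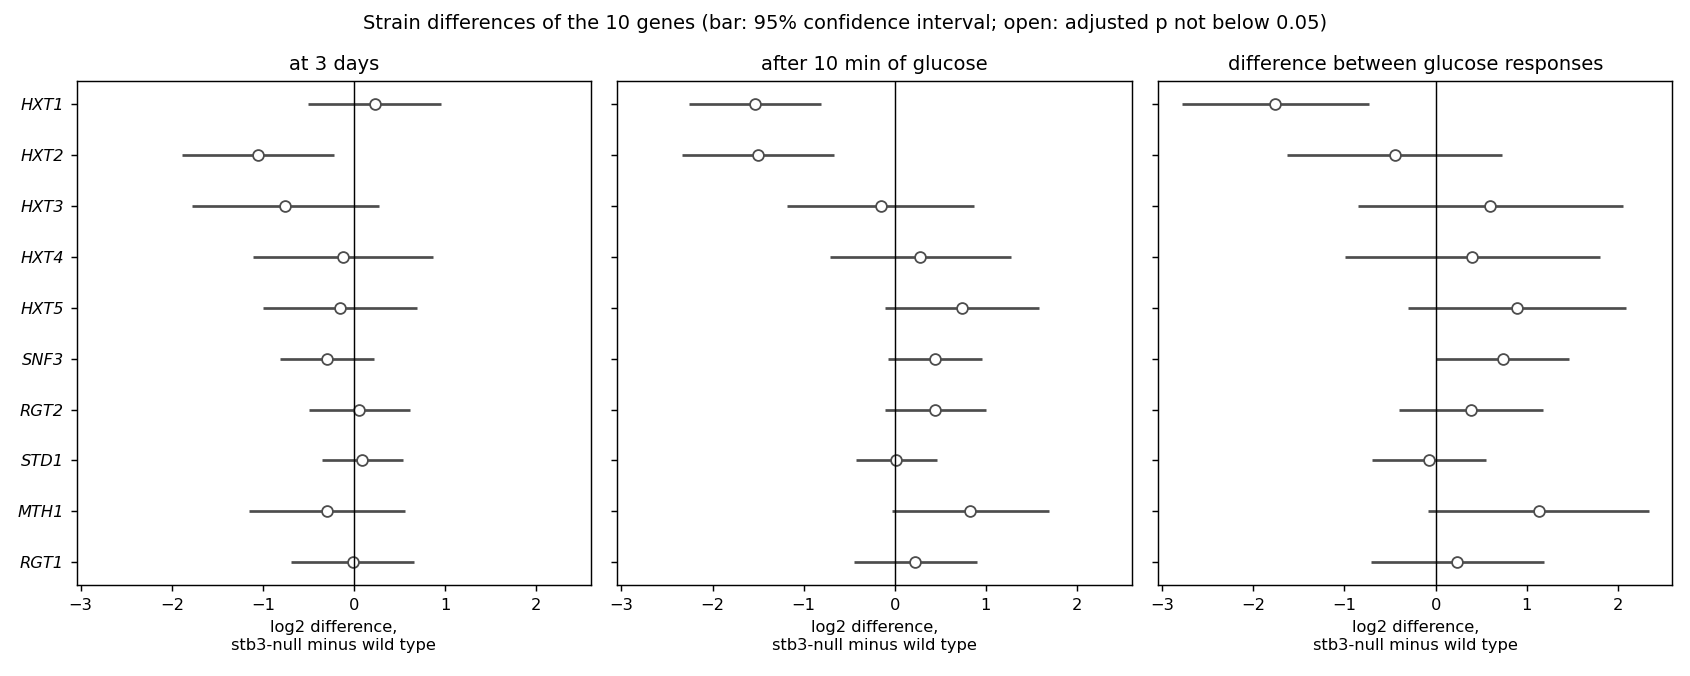
Log2 difference, stb3-null minus wild type (horizontal axis), of each gene at 3 days, after 10 min of glucose and between the glucose responses, with 95% confidence intervals as bars. All points are open because none passed at an adjusted p below 0.05. HXT2 is low in both conditions (-1.05 and -1.50), and HXT1 after glucose (-1.54) and between the responses (-1.76).

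The order of the 4 group means differed between the genes. HXT1 was highest in wild type after glucose (12.23 ± 0.21, SD, n = 2), then in stb3-null after glucose (10.70 ± 0.36), with both 3-day groups overlapping below. For HXT3, HXT4 and STD1, both glucose groups overlapped at the top. The 3-day groups overlapped at the bottom for HXT3 and HXT4, and for STD1 they were 0.09 apart. For SNF3, MTH1 and HXT5 the order ran the other way, with wild type at 3 days highest and wild type after glucose lowest (6.94 ± 0.40 for SNF3, 9.28 ± 0.88 for MTH1 and 10.76 ± 0.46 for HXT5), and stb3-null after glucose next above it without overlap. RGT1 had the same order, with the glucose groups overlapping. RGT2 was highest in stb3-null after glucose (9.89 ± 0.27), then in wild type after glucose (9.45 ± 0.29), with overlapping 3-day groups. HXT2 was ordered by strain, with overlapping wild-type groups (7.68 ± 0.81 after glucose and 7.37 ± 0.18 at 3 days) above overlapping stb3-null groups (6.18 ± 0.42 and 6.32 ± 0.41 in the same conditions).

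Other genes of the pathway were counted from 3 lists. Of 13 other hexose transporter genes (HXT6 to HXT17 and GAL2), 6 had a probe set of their own and 3 of these, HXT6, HXT7 and GAL2, passed the filter. None of the 3 passed the test in any comparison. HXT6 and HXT7, nearly identical high-affinity transporter genes measured by probe sets of a type that similar sequences share, were at -0.22 and -0.17 in stb3-null (adjusted p = 0.601 and 0.656) and by -0.52 and -0.65 in wild type (adjusted p = 0.185 and 0.0821). HXT8, HXT10 and HXT14 did not exceed 6.75 on any array, and probe sets shared by HXT9 and HXT11 or by HXT13, HXT15, HXT16 and HXT17 did not exceed 6.68.

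Of 9 genes of the proteins that act on Std1, Mth1 and Rgt1, 2 rose and none fell in stb3-null, with a median of 0.16 beside 0.26 for all genes. In wild type 3 rose and 1 fell, with a median of 0.30 beside 0.22. Of all genes, 28.0% were called higher and 11.6% lower in stb3-null, and 32.3% higher and 17.6% lower in wild type, so these counts lay near the overall shares. YCK2, 1 of the casein kinase genes, was at 0.60 in stb3-null (adjusted p = 0.0674) and rose by 1.27 in wild type (SE 0.23, adjusted p = 0.00176). SKP1, an adaptor of the ubiquitin ligase, rose by 0.96 in stb3-null (adjusted p = 0.0148) and 0.78 in wild type (adjusted p = 0.0284), but with quantile normalisation it was at 0.29 and 0.12 (adjusted p = 0.28 and 0.629). HRT1, the RING subunit of that ligase, was higher by 0.74 in stb3-null (adjusted p = 0.0435) and was at 0.30 in wild type (adjusted p = 0.352). CDC53, its cullin scaffold, fell by 0.72 in wild type (adjusted p = 0.0195) and was at -0.585 in stb3-null (adjusted p = 0.0535). TUP1, of the corepressor that works with Rgt1, was higher by 0.72 in wild type (adjusted p = 0.0251) and was at 0.21 in stb3-null (adjusted p = 0.487). HRT1, CDC53 and TUP1 passed in 14, 19 and 15 of 22 other settings. The kinase gene YCK1, the F-box gene GRR1, the ubiquitin-conjugating enzyme gene CDC34 and the corepressor gene CYC8 did not pass in either strain.

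Of 11 genes of the Snf1 and Mig pathway, which represses genes for other carbon sources while glucose is present, 2 rose and 2 fell in each strain, with medians of -0.04 in stb3-null (0.26 for all genes) and -0.09 in wild type (0.22 for all genes). The shares of all genes called, 28.0% higher and 11.6% lower in stb3-null and 32.3% and 17.6% in wild type, stand beside 2 of 11 in each direction. MIG2, a repressor gene that Rgt1 itself controls, read 8.65 and 9.24 in stb3-null after glucose, against 6.45 and 6.92 at 3 days. Wild-type cells had signals of 9.66 and 8.15 after glucose, against 6.85 and 5.63 at 3 days. The last of these lay below the filter level, so the size of the wild-type rise is uncertain. MIG2 rose by 2.26 in stb3-null (SE 0.51, adjusted p = 0.00724) and by 2.67 in wild type (SE 0.51, adjusted p = 0.00207). Its rise in stb3-null did not pass when replicate A at 3 days (2.03, adjusted p = 0.066) or replicate B after glucose (1.97, adjusted p = 0.0564) was left out. MIG3, its paralogue, rose by 1.96 in stb3-null and 1.58 in wild type (adjusted p = 4.13e-04 and 6.22e-04), with some 3-day signals below the filter level. SIP2, a beta subunit gene of the Snf1 kinase, fell by 1.28 in stb3-null and 1.54 in wild type (adjusted p = 0.00136 and 2.41e-04). SNF1, the kinase gene, fell by 0.83 in stb3-null and 0.75 in wild type (adjusted p = 0.0111 and 0.0133), calls that held in 18 and 19 of 22 other settings. MIG1, the main repressor gene, was at -0.12 in stb3-null and -0.83 in wild type (adjusted p = 0.784 and 0.0529), and the hexokinase gene HXK2 stayed between 10.24 and 10.48 on all arrays. No gene of these 3 lists passed where the strains or their responses were compared.

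**Figure D5:**
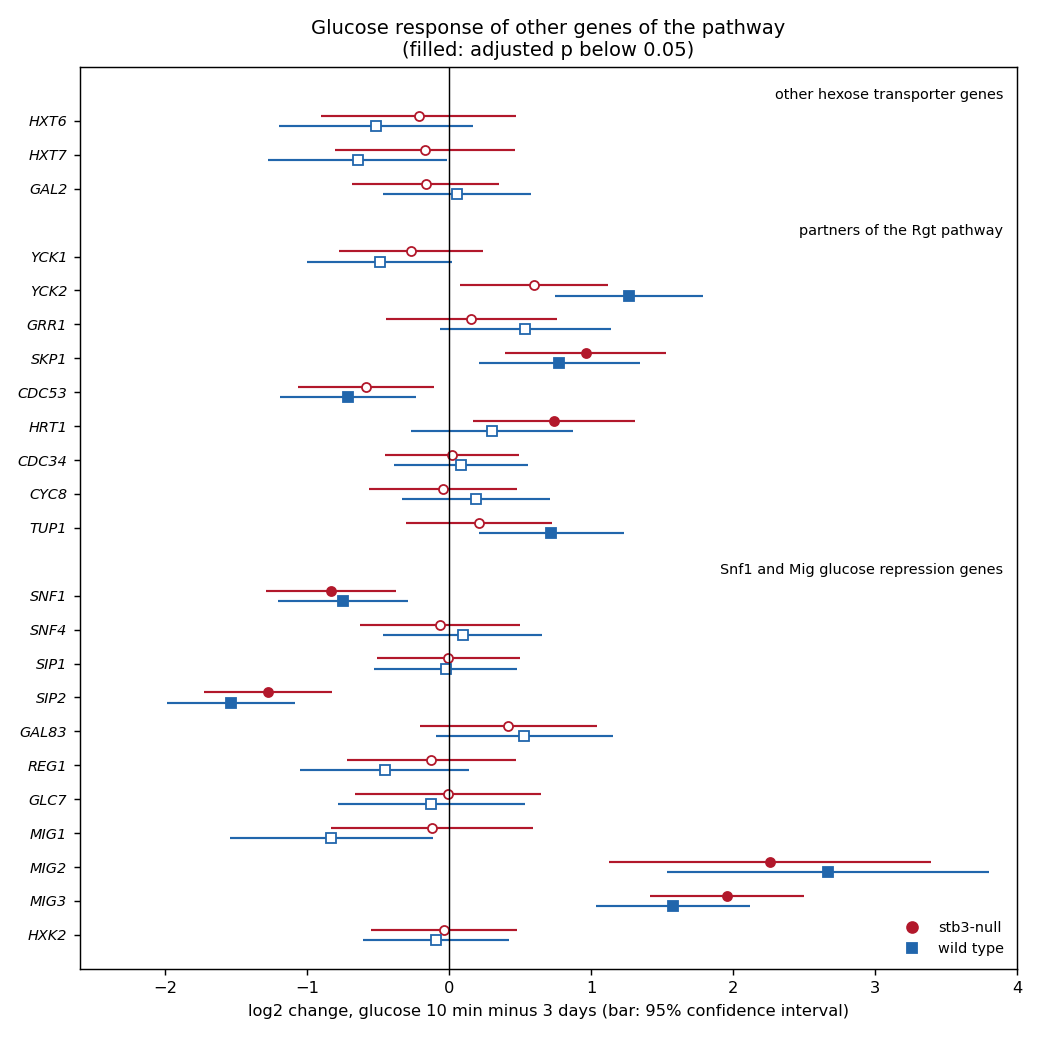
Log2 change after glucose (horizontal axis, glucose 10 min minus 3 days) of the measured genes of the 3 other lists in stb3-null (circles) and wild type (squares), with 95% confidence intervals as bars and filled points where the adjusted p was below 0.05. MIG2 and MIG3 lie farthest to the right, and SIP2 farthest to the left.

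Genes with the most similar pattern were found by the root mean square difference between log2 signals over the 8 arrays, after each gene was centred on its own mean. The 3 nearest to HXT1 were AAH1 at 0.37, YDR222W at 0.83 and SAM1 at 0.85, and AAH1, for adenine deaminase, rose by 4.81 in stb3-null and 5.50 in wild type. Nearest to STD1 were SQT1 (0.18), RLP24 (0.19) and FRS1 (0.19). Nearest to SNF3 were PCD1 (0.13), YOL153C (0.14) and RMR1 (0.14), and nearest to MTH1 were ECM4 (0.20), PEP12 (0.22) and ATG45 (0.23). These distances describe the 8 arrays, which all share the step between 3 days and glucose.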

How the data were processed

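Total RNA was labelled with biotin and hybridised to Affymetrix yeast arrays by the manufacturer's protocol, per the labels' protocols. The deposited values are log2 signals, 1 for each of 9275 probe sets on each array. MAS5 is named, without version or role, per the submitters' processing notes. No source used here gives the scaling between arrays or the base of the logarithm, which was taken as 2 from the range of the values, 0 to 14.55. Arrays give no counts behind a value, so their number limits the precision, and no detection calls were used.

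Signals were used as deposited. Gene symbols came from the annotation of the platform, checked against RefSeq genes of assembly R64. Of the probe sets, 6504 carried 1 gene, 328 several and 2443 none listed. A gene with several probe sets was represented by the one with the highest mean. Genes passed where the mean antilog signal reached 10% of the mean 2% trimmed mean of the arrays. The 5343 genes entered 1 fit by limma 3.58.1 (R 4.3.3), with a mean per group, all 8 arrays sharing 1 estimate of the spread, empirical Bayes moderation that follows the mean-variance trend, 4 residual and 5.56 prior degrees of freedom, two-sided tests and Benjamini-Hochberg adjustment over all genes of a comparison. The fit was tested on simulated data in which each gene had 1 spread in all groups and changes were made only in wild type after glucose. The simulation therefore did not cover strains that differ in spread. Wild-type replicates spread more widely than stb3-null ones, so the shared estimate can make p-values too small in wild type and too large in stb3-null. Since separate cultures are not stated, p-values measure only how far these samples spread, and that spread may be technical.

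The 10 genes and the other lists were chosen with earlier results of these data known. The text names the 10 genes and STB3, for each comparison up to 4 called genes of each other list with the largest change and 1 sign over every pairing of arrays, other list members as examples of genes that did not pass, and the 3 most similar genes of HXT1, STD1, SNF3 and MTH1. Alternatives were 13 other ways of processing, omission of each of the 8 arrays and, chosen after seeing the data, omission of both wild-type B arrays. A planned search of promoters for motifs was not run, since no sequence was used here.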

Additional observations from a re-analysis of the deposited data

How the results depend on the processing

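Of 1433 repeats of single-gene results under other settings, 1324 kept their direction and side of the threshold, 51 lost it, 20 gained it and 38 changed sign. Part of this agreement was fixed in advance, since omission of an array outside a comparison leaves its log2 change as it was. The number of the 10 genes called after glucose stayed at 5 to 8 in stb3-null and 6 to 8 in wild type over 22 settings. In the strain comparisons it was 0, with a range of 0 to 1 when 1 array was left out, both at 3 days and after glucose. Omission of both wild-type B arrays, an alternative chosen after seeing the data, left a single array in each wild-type group. Calls in that setting therefore measure no spread between wild-type replicates. For the difference between responses it was 0 in all 21 settings.

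No result that passed in the fit described above changed sign under these settings. Scaled to a common trimmed mean, the change after glucose in wild type was -0.17 for HXT2 and -0.063 for RGT2, and the strain difference of STD1 after glucose was -0.046 (-0.03 with median centring). Without both wild-type B arrays, HXT2 after glucose in wild type was at -0.13. The strain differences at 3 days were then 0.04 for HXT3, 0.36 for HXT5 and 0.14 for RGT1, and after glucose -0.40 for HXT4, -0.16 for STD1 and -0.12 for RGT1. The differences between responses were -0.44 for HXT3 and -0.26 for RGT1. With single arrays left out, the change of HXT2 after glucose ran from -0.44 to 0.16 in stb3-null and from -0.26 to 0.88 in wild type. Strain differences at 3 days ran from -0.25 to 0.70 for HXT1, -1.55 to 0.04 for HXT3, -0.62 to 0.38 for HXT4, -0.67 to 0.36 for HXT5, -0.12 to 0.24 for RGT2 and -0.28 to 0.25 for RGT1. After glucose they ran from -0.40 to 0.085 for HXT3, -0.40 to 0.96 for HXT4, -0.16 to 0.19 for STD1 and -0.12 to 0.57 for RGT1. Differences between responses ran from -1.02 to 0.12 for HXT2, -0.20 to 1.40 for HXT3, -0.28 to 1.08 for HXT4, -0.25 to 0.10 for STD1 and -0.11 to 0.59 for RGT1. The cause of these shifts was not tested.

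The replicate letters are shared by the groups without a stated pairing, and the A minus B differences of the groups correlated between -0.18 and 0.22 over genes, so the samples were not treated as paired. With the letter as a replicate block, 6 of the 10 genes were called in stb3-null after glucose, 7 in wild type and 0 in each of the other comparisons, and of the genes named only HRT1 lost its call (adjusted p = 0.0504). With 2 arrays per group and wild-type replicates that spread more widely than the stb3-null ones, differences such as that of HXT1 between responses have intervals about as wide as their size. Signals near the filter level, as for HXT2, MIG2, MIG3 and HXT1 at 3 days, give uncertain sizes.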

Other observations

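Some of these genes are neighbours. In the RefSeq gene order of chromosome VIII, HXT4, AHT1, HXT1 and HXT5 follow each other, and the 3 transporter genes lie on the same strand. Of these, HXT4 and HXT1 rose after glucose in both strains, whereas HXT5 was at -0.37 in stb3-null, where it did not pass, and fell in wild type. On chromosome IV, HXT7, HXT6, YDR344C and HXT3 follow each other. HXT3 rose by 4.01 in stb3-null and 3.41 in wild type, and its neighbours HXT6 and HXT7 did not pass in either strain.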
